A study of Mus musculus with 8 samples.

Results

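Replication-type histone genes were taken as the genes whose symbol starts with Hist1h, Hist2h, Hist3h or Hist4 and whose FPKM (fragments per kilobase of transcript, scaled to the library's total) was above 0 in at least 2 of the 8 libraries. This rule gave 62 of the 19417 genes measured, by symbol 6 of H1, 15 of H2A, 18 of H2B, 11 of H3 and 12 of H4. The H2B set includes Hist3h2bb-ps, a pseudogene by its symbol, which was also among the genes tested. Another 5 genes with these prefixes were above 0 in fewer than 2 libraries and were left out, 1 of them (Hist1h2ag) at 0 in all 8. Just inside the rule were Hist1h2ah, Hist1h4b and Hist2h2ac, each above 0 in 2 libraries. RNA came from cultures of C57BL/6 mouse primary cortical neurons that had been exposed for 24 h to the vehicle DMSO, to 10 µM 4-OI, to 50 µM hemin, or to hemin and 4-OI at those same concentrations. Hemin is the iron-containing porphyrin derived from hemoglobin, and 4-OI is 4-octyl itaconate, a cell-permeable itaconate derivative. Each of the 4 groups had 2 libraries. No label states that the libraries of a group were separate cultures, so every p-value below reflects only the spread among these samples, which may be technical.

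Nucleosomes are built from the core histones H2A, H2B, H3 and H4, and the linker histone H1 binds the DNA between them. Replication-type histone genes lie in clusters, lack introns, and are transcribed mainly in S phase, when new DNA has to be packed. Their messages end, in dividing cells, in a conserved stem-loop bound by the protein Slbp instead of a poly(A) tail, and some of these genes also make longer polyadenylated messages in differentiated cells. Cells that have left the cycle, such as neurons, draw instead on replacement histone genes, which are transcribed throughout and yield ordinary polyadenylated messages.

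The stem-loop is shown because it is the feature that sets these messages apart. Transcripts of 60 members could be matched in GENCODE M21 (GRCm38), and a stem-loop of 16 bases was found after the stop codon in 40 of them. The search ran along the sense strand for GG and 4 pyrimidines, a loop of 4 bases starting with TT, and the reverse complement of the first 6 bases. Of 21901 protein-coding genes, 56 (0.256%) had such a match anywhere in a transcript. Below, the 16 bases are in capitals, with 5 bases on either side where the transcript reaches that far.
Hist1h1c: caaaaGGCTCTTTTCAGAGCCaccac
Hist2h2aa1: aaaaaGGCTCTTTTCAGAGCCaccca
Hist3h2a: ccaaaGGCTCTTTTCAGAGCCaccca
Hist3h2ba: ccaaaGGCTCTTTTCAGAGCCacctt
Hist1h3d: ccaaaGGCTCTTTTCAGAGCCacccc
Hist1h3e: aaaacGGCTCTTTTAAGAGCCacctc
Hist1h4h: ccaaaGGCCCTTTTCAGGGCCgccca
Hist1h4m: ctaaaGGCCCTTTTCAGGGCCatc
Hist1h4i: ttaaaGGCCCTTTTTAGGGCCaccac
Hist1h4j: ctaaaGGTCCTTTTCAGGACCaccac
The 40 genes used 6 forms. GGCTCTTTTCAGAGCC was found in 23 genes, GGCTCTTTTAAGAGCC in 6, and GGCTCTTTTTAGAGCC in 1, all of them H1, H2A, H2B or H3 genes. The forms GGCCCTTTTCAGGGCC (6 genes), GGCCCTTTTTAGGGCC (2 genes) and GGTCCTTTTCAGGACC (2 genes) occurred in H4 genes. Of the 20 matched members with no match, 14 had annotated transcripts ending within 60 bases of the stop codon, and Hist1h2bc and Hist2h2be were among the 6 whose transcripts go on further. Among the 40 with the stem-loop, the annotated transcript ended within 100 bases of it in 19 and went on for over 100 bases in 21, including Hist3h2ba (169 bases), Hist1h1c (840 bases) and Hist3h2a (1643 bases).

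Many members are near copies, and a short read can fit several of them. The 12 H4 genes had 12 different coding sequences, 85.3% to 98.4% identical in pairs, and 1 predicted protein. Among the 11 H3 genes there were 2 predicted proteins, of 7 and 4 genes. The coding sequences of Hist2h2aa1 and Hist2h2aa2 were identical, as were those of Hist1h2bq and Hist1h2br, whose FPKM values were the same in every library. The split of fragments between such copies is uncertain, and sums over copies are given where this matters.

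Depth was estimated from the steps between low FPKM values at 8.9 to 10.1 M fragments per library. The estimate is approximate: 77.9% to 84.3% of the low values used lay no more than 0.15 from a whole fragment count. The first hemin library stood apart from the other 3 libraries with hemin on the second principal component of all genes tested (36.5 against -12.4 to -15.0), a component that held 8.06% of the variance. Of the 41 tested histone genes, 18 were higher in it than in the second hemin library (43.9%), against 52.0% of all genes tested. Neuronal markers were abundant without hemin, with summed FPKM of 6 markers of 1636 to 1726, and lower with it, at 331 to 470.1. Summed FPKM of 8 astrocyte markers, Gfap among them, was 142 to 148 without hemin, 807 in the first hemin library and 326 to 359.5 in the other 3, so astrocyte marker RNA was present in every library of these neuronal cultures.

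Without hemin, RNA of the members came from few genes. Between 23 and 32 of the 62 members were above 0 in each of the 4 libraries without hemin, and between 53 and 56 in each of the 4 with it. Over all genes measured these shares were 82.2% to 82.6% and 89.2% to 90.8%. Only 12 members reached 1 FPKM in at least 2 libraries without hemin, and 15 were listed at 0 in all 4 of them, whereas 0 members were at 0 in all 4 libraries with hemin. By the rule, those 15 had to be above 0 in at least 2 libraries with hemin. The shares of all genes at 0 in this way were not computed. Hist3h2ba and Hist3h2a alone held 59.3% to 66.0% of the summed FPKM of all members without hemin and 11.7% to 17.2% with it. The heat map of all members shows the many dark rows without hemin and the few bright ones.

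**Figure D1:**
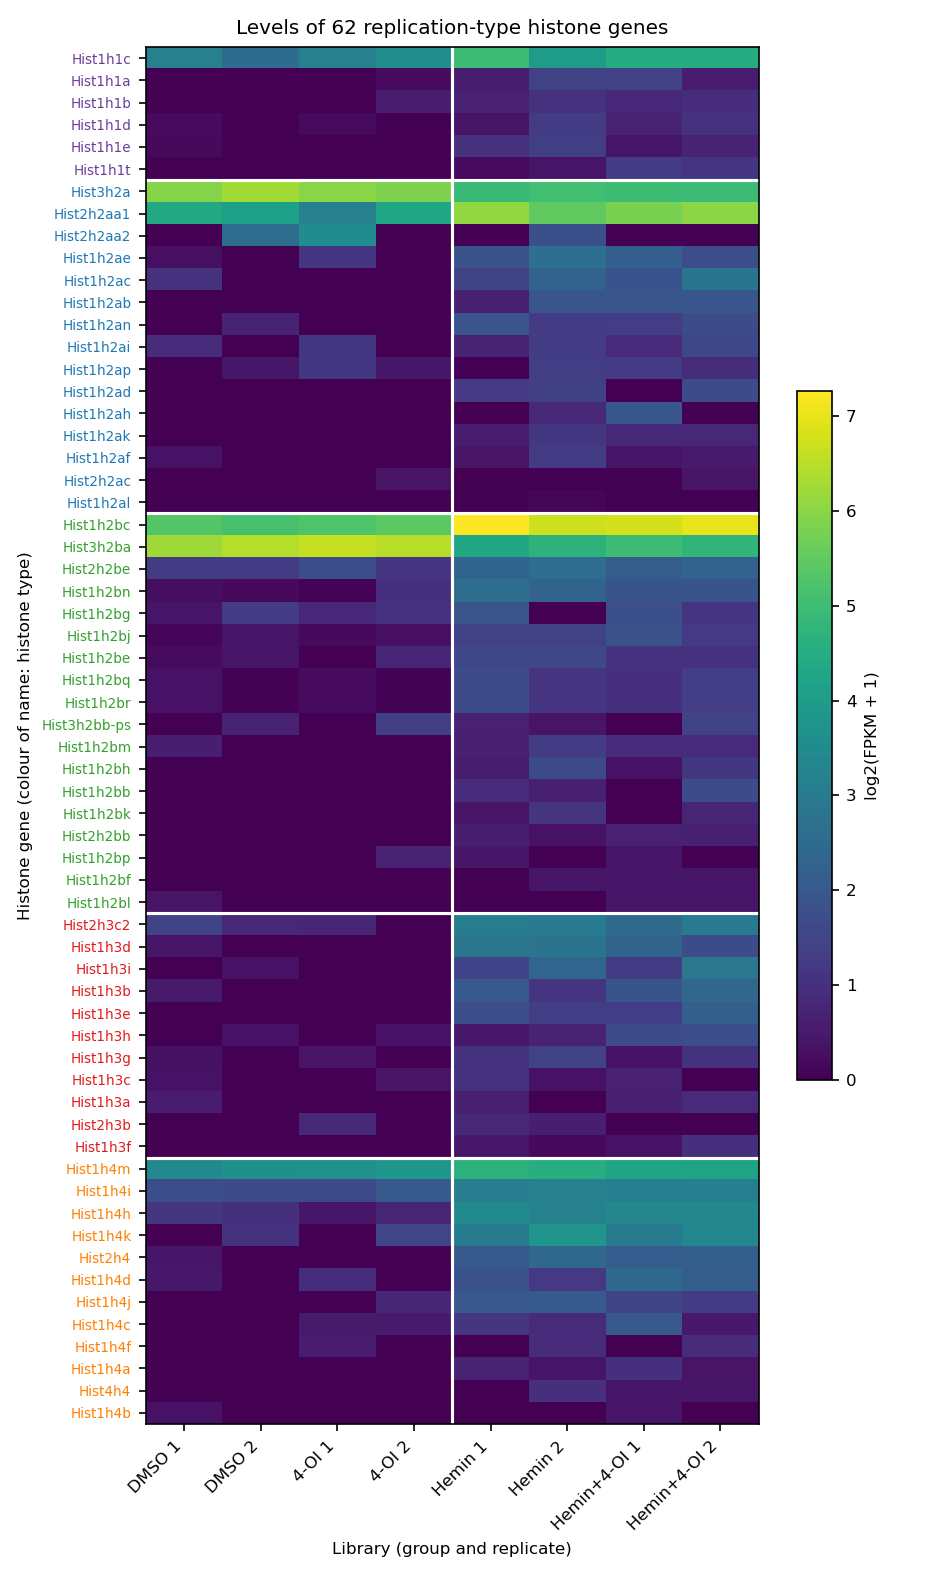
Levels of the 62 histone genes (rows, by type and then by mean level) in the 8 libraries (columns), as log2(FPKM + 1). The 4 columns on the left have no hemin, where Hist3h2ba, Hist3h2a and Hist1h2bc are brightest, and 53 to 56 members are above 0 in each column on the right.

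Summed by type, H3 messages had the highest ratio of hemin over DMSO and H2A messages the lowest. In hemin+4-OI over 4-OI, H3 was again the highest (19.6) and H2B the lowest (1.21, beside 1.35 for H2A). That 19.6 is without the H3 gene Hist2h3c1, left out by the rule, with 2.95 FPKM in the second 4-OI library and 0 in every other. With it, the H3 sum under 4-OI would be higher and the ratio lower. Summed H3 FPKM was 3.63 and 1.37 in the DMSO libraries, 1.79 and 0.59 under 4-OI, 25.0 and 22.8 under hemin, and 18.2 and 28.4 under both compounds, a ratio of means of 9.56 for hemin over DMSO. For H4 the sums were 14.8 and 15.9 in DMSO, 15.9 and 20.01 under 4-OI, 59.2 and 62.8 under hemin, and 55.8 and 54.4 under both, a ratio of 3.97. H1 sums rested mainly on Hist1h1c and gave a ratio of 4.16. In none of these types did a library with hemin overlap one without it. H2A and H2B sums gave ratios of only 1.15 and 1.43, but their largest contributors without hemin, Hist3h2a and Hist3h2ba, were lower with hemin. With that pair left out, the ratios were 3.26 for H2A and 3.69 for H2B, and over all 60 remaining members the sum was 83.3 to 99.96 FPKM without hemin and 299 to 371 with it. With median-of-ratios scaling the small H2A difference changed sign (log2 ratio of 0.20 against -0.03). These sums are descriptions and were not tested.

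**Figure D2:**
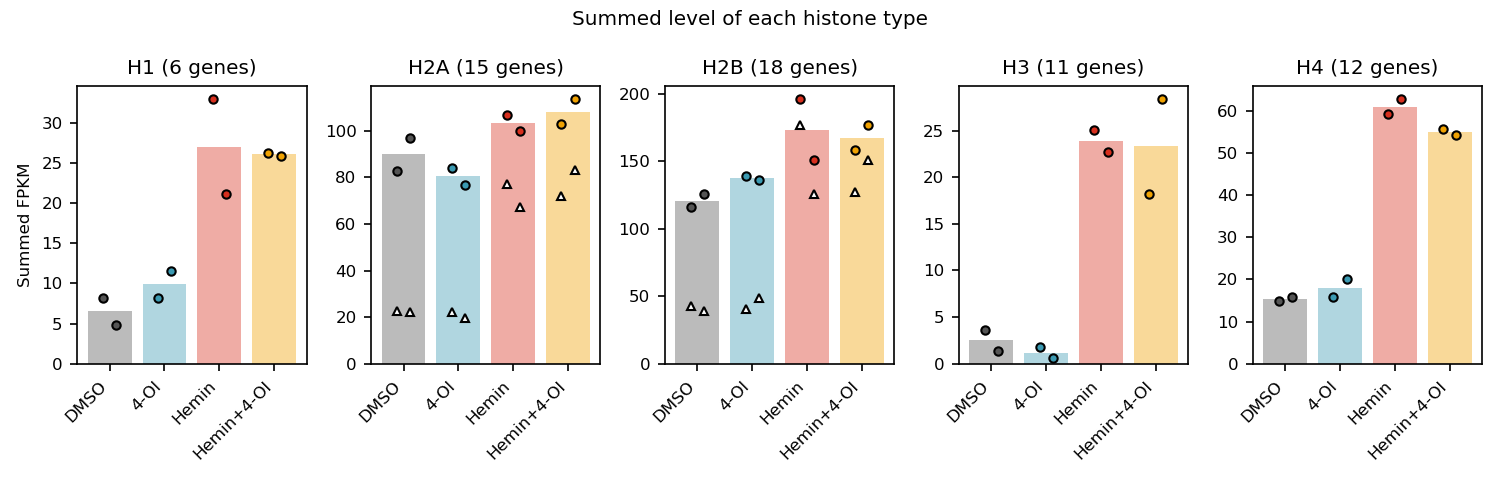
Summed FPKM of the members of each histone type (vertical axis) in the 4 groups. Circles are libraries and bars their means, and triangles give the H2A sum without Hist3h2a and the H2B sum without Hist3h2ba, which with hemin lie at 67.4 to 83.2 and 125 to 176.

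Hemin against DMSO asked how 24 h of hemin changed these messages. Of the 62 members, 41 reached 1 FPKM in 2 or more libraries and were tested with limma among 13746 genes. The adjusted p-values (Benjamini-Hochberg over all genes tested, two-sided) passed 0.05 with a higher level in 30 and with a lower level in 2, against 38.7% and 22.6% of all genes tested (61.3% in either direction). By type, 3 of 5 H1 genes, 6 of 10 H2A genes, 8 of 11 H2B genes, 6 of 7 H3 genes and 7 of 8 H4 genes rose, and Hist3h2a and Hist3h2ba fell. The median log2 change of FPKM + 1 was 1.23 over the 41 genes and 0.19 over all genes tested. A member that reached the filter only through the libraries with hemin had to be higher there, so these counts do not stand for all members. Among the 12 members at 1 FPKM or more in at least 2 libraries without hemin, 8 rose, 2 fell and 2 did not pass. These 12 hold no H3 gene, and 22 of the 30 that rose were other members, so the counts by type do not rank the types. The same limit holds for the adjusted p of each such member named below, Hist1h1e, Hist1h1a, Hist1h2ae and Hist1h2bn among them. Median-of-ratios scaling moved the median over all genes tested to -0.01 and the split of all calls from 5321 higher and 3110 lower to 4204 and 4405, with all 32 calls among the members kept. Quantile normalization, which gave a median of -0.01, kept 18 of the 32 and called 16 higher. Over all 13746 genes tested it called 3642 higher and 4037 lower. In such bulk samples, fewer cells of a type and less RNA per cell cannot be told apart.

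Among the H1 members, Hist1h1c was the most abundant, although the replacement histone gene H1f0 was higher in every library. FPKM of Hist1h1c was 7.92 and 4.80 in DMSO, 7.97 and 11.0 under 4-OI, 30.4 and 15.2 under hemin, and 21.4 and 21.7 under both. The libraries with hemin were all above those without, and the log2 change with hemin was 1.65 ± 0.32 (limma's standard error, n = 2 a group, adjusted p = 0.00235). Hist1h1e, another somatic H1 subtype, read 0.14 and 0 FPKM in DMSO and 1.04 and 1.54 with hemin (1.09 ± 0.20, adjusted p = 0.00170). Hist1h1a, at 0 in the DMSO pair, had 0.47 and 1.63 FPKM under hemin (adjusted p = 0.0347), a call that was lost without either DMSO library (adjusted p = 0.111 and 0.112), either 4-OI library (0.0575 and 0.0577) or the second hemin library (0.159). Hist1h1b stayed under the filter, at 0 to 0.47 FPKM without hemin and 0.58 to 1.06 with it.

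Hist3h2a was the most abundant of the H2A members without hemin and the 1 member of its type that fell. It stood at 60.3 and 75.1 FPKM in DMSO, 61.9 and 57.5 under 4-OI, 29.6 and 32.6 under hemin, and 31.1 and 30.4 under both. No library with hemin reached the lowest one without it, and the log2 change was -1.09 ± 0.12 (adjusted p = 0.000163). Hist2h2aa1 encodes a core H2A and rose: 20 and 16 FPKM in DMSO, 7.94 and 18.8 under 4-OI, 66.8 and 43.9 under hemin, and 55.4 and 63.4 under both (1.55 ± 0.34, adjusted p = 0.00463). Hist2h2aa2, its identical copy, was above 0 in only 3 libraries, with 5.03, 10.46 and 2.43 FPKM in the second DMSO, first 4-OI and second hemin library, and did not pass. The pair summed to 20 and 21.03 in DMSO, 18.4 and 18.8 under 4-OI, 66.8 and 46.3 under hemin, and 55.4 and 63.4 under both. Of the other tested H2A genes, which lie in the Hist1 cluster, Hist1h2ae rose from 0.22 and 0 FPKM to 2.61 and 5.24 with hemin (2.10 ± 0.39, adjusted p = 0.00211).

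Among H2B genes, the most abundant message changed from Hist3h2ba to Hist1h2bc. Hist3h2ba read 73.4 and 86.4 FPKM in DMSO, 98.6 and 87.8 under 4-OI, 19.4 and 25.2 under hemin, and 31.03 and 25.8 under both. It was the highest of all members in each of the 4 libraries without hemin, and its log2 change with hemin was -1.80 ± 0.15 (adjusted p = 5.53e-05). Hist1h2bc was at 39.1 and 34.9 FPKM in DMSO, 37.1 and 41.9 under 4-OI, 153 and 104 under hemin, and 110.3 and 129 under both (1.75 ± 0.17, adjusted p = 0.000111). Hist1h2bc was the highest of all members in each of the 4 libraries with hemin, where it held 29.2% to 36.4% of the summed FPKM of all members. Hist2h2be, at 1.39 and 1.45 FPKM in DMSO and 4.05 and 5.01 with hemin, rose by less (1.19 ± 0.21, adjusted p = 0.00171). Hist1h2bn went from 0.20 and 0.13 FPKM to 5.04 and 3.98 (2.24 ± 0.28, adjusted p = 0.000319).

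H3 genes of the replication type were near the floor without hemin. No H3 gene was among the 12 members at 1 FPKM or more in at least 2 libraries without hemin. Each tested H3 gene thus passed the filter only with libraries with hemin. The adjusted p-values here therefore describe a direction that the filter favoured. Hist2h3c2, the highest of them, had 1.81 and 0.79 FPKM in DMSO, 0.72 and 0 under 4-OI, 7.48 and 6.81 under hemin, and 4.67 and 6.76 under both (1.86 ± 0.31, adjusted p = 0.00120). Hist1h3d had 0.36 and 0 FPKM in DMSO, 0 in both 4-OI libraries, 6.21 and 5.89 with hemin, and 4.04 and 2.23 with both (2.60 ± 0.24, adjusted p = 8.60e-05). Both genes encode the same predicted protein, and neither overlapped between libraries with and without hemin. Hist1h3i, which encodes the other predicted H3 protein, was at 0 and 0.29 FPKM in DMSO and at 1.77 and 4.13 with hemin (1.73 ± 0.49, adjusted p = 0.0143). Without the first DMSO library or the second hemin library its adjusted p was 0.0771 or 0.0599. Hist1h3e was listed at 0 in all 4 libraries without hemin and at 1.5 to 3.55 FPKM in the 4 with it (adjusted p = 0.00179). Hist1h3h did not pass, at 0 and 0.29 FPKM in DMSO and 0.37 and 0.66 with hemin.

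All 8 tested H4 genes had a positive log2 change with hemin, and 7 rose. Some of the 8, Hist2h4 among them, passed the filter only with libraries with hemin, which favoured a positive change. Hist1h4m, Hist1h4h and Hist1h4i were at 1 FPKM or more in at least 2 libraries without hemin. Hist1h4m, the most abundant, had 10.2 and 11.6 FPKM in DMSO, 11.7 and 13.2 under 4-OI, 24.5 and 22.1 under hemin, and 17.9 and 17.7 under both (1.03 ± 0.12, adjusted p = 0.000204). Hist1h4h had 1.22 and 1.00 FPKM in DMSO, 0.36 and 0.69 under 4-OI, 10.2 and 8.08 under hemin, and 9.30 and 9.25 under both (2.26 ± 0.18, adjusted p = 4.26e-05). Libraries with and without hemin did not overlap for either gene. Hist1h4i, with 2.37 and 2.24 FPKM in DMSO and 7.52 and 7.88 with hemin, had a log2 change of 1.40 ± 0.17 (adjusted p = 0.000277). Hist2h4, from the Hist2 cluster, went from 0.36 and 0 FPKM to 3.08 and 4.45 (2.02 ± 0.21, adjusted p = 0.000143). These genes all encode 1 predicted protein, and how fragments were split among the copies can move each gene's FPKM and, since transcript lengths differ, the summed H4 level too.

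**Figure D3:**
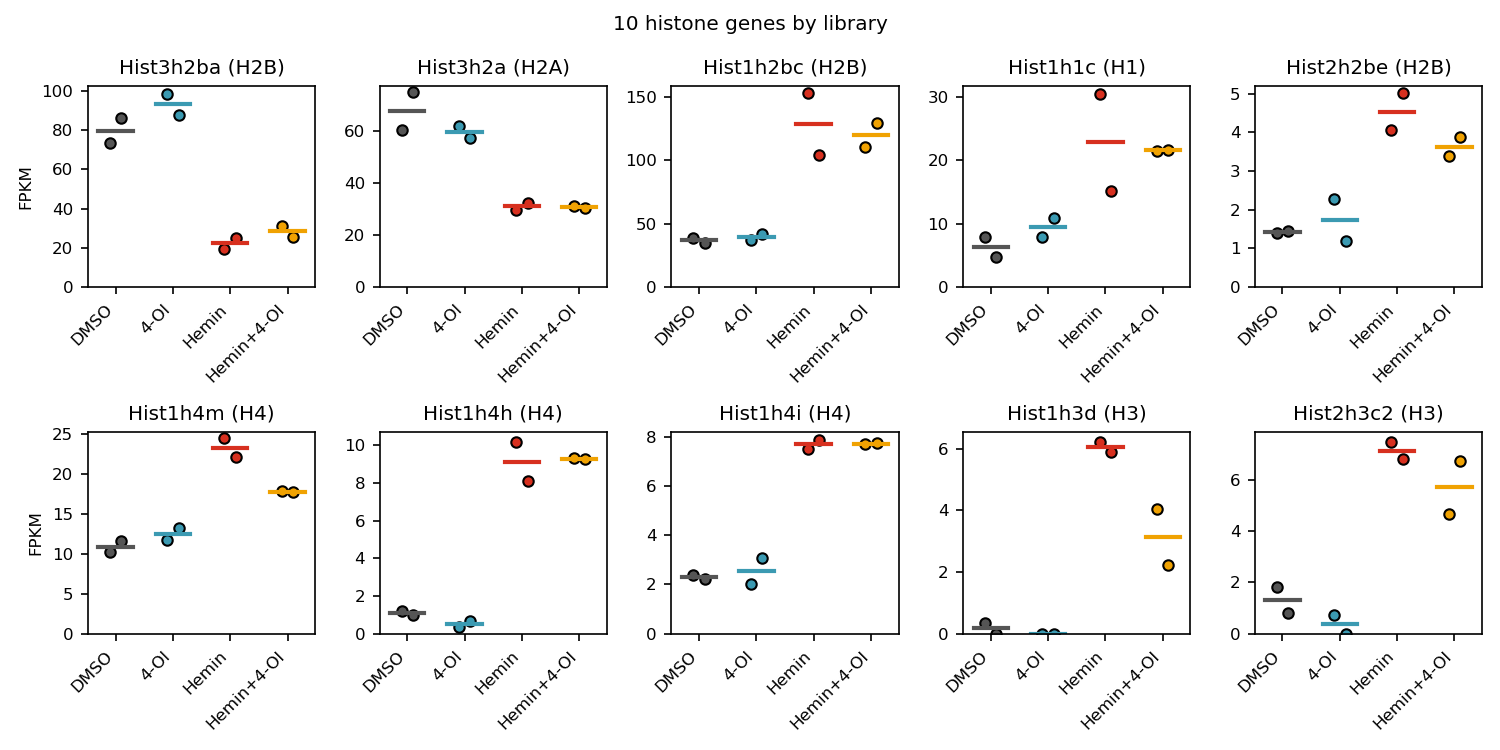
FPKM (vertical axis, from 0) of 10 histone genes in the 4 groups. Points are libraries and lines group means. Hist3h2ba and Hist3h2a are lower in all 4 libraries with hemin, and the other 8 genes are higher in all 4.

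The 21 untested members stayed under 3 FPKM in every library, the highest value being 2.83 FPKM for Hist1h2ah in the first library with both compounds. Of these 21, 10 were listed at 0 in all 4 libraries without hemin, and 20 had a higher summed FPKM over the 4 libraries with hemin than over the 4 without. The exception was Hist2h2ac, which had 0.31 FPKM in the second 4-OI library, 0.3 in the second library with both compounds and 0 in the others. The 10 at 0 without hemin entered the rule only through libraries with hemin, so their direction was fixed. The share over all untested genes was not computed, so the count of 20 is a description.

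Promoter windows are shown for the 2 genes that fell and for 2 that rose with low adjusted p-values. RefSeq windows (GRCm38.p6, 250 bases before to 50 after the start of transcription) were held for 55 of the 62 members. On either strand, TATAAA, the TATA box, was in 56.4% of the members' windows and in 15.7% of the windows of all 27025 genes. CCAAT, the CCAAT box, was in 85.5% against 41.1%: in all H1, H2A, H2B and H3 windows and in 3 of 11 H4 windows. The octamer ATTTGCAT was in 21.8% against 1.97%, in 6 H2A and 6 H2B windows. The windows below are all on the plus strand, for Hist3h2ba (chr11:58948661-58948960), Hist3h2a (chr11:58954435-58954734), Hist1h4h (chr13:23530794-23531093) and Hist1h3d (chr13:23575513-23575812), with TATAAA and CCAAT on either strand in capitals.
Hist3h2ba: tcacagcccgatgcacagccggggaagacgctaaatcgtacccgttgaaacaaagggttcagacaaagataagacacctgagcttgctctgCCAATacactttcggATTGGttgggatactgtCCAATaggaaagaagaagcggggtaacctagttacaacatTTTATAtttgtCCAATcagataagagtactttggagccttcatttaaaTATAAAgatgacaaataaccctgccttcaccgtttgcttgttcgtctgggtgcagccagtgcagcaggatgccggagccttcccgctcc
Hist3h2a: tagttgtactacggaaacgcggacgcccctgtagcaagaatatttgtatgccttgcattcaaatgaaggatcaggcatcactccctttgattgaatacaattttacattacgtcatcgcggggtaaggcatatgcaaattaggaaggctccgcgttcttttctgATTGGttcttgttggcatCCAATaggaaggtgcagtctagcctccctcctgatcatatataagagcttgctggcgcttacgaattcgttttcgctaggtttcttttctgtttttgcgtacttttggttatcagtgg
Hist1h4h: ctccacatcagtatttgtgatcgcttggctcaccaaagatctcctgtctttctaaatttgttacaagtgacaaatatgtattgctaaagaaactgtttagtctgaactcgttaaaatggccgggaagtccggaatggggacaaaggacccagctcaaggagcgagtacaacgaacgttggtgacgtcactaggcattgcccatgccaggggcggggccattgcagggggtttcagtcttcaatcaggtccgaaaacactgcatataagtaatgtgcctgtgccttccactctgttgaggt
Hist1h3d: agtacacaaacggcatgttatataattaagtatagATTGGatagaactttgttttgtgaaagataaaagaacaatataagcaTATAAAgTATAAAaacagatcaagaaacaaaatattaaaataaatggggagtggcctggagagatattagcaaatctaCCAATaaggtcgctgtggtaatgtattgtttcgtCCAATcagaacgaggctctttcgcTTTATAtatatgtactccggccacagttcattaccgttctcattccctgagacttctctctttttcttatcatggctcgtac
Hist3h2ba and Hist1h3d held both TATAAA and CCAAT, Hist3h2a held CCAAT and the octamer, and the Hist1h4h window held none of the 3. Both boxes thus occurred in a gene that fell and in a gene that rose, and a missing match says only that these letters are not in the window.

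Hemin+4-OI against 4-OI, the same hemin exposure in the presence of 4-OI, shares no library with hemin against DMSO. Here 29 of the 41 members rose and 2 fell, against 33.3% and 24.2% of all genes tested (57.5% in either direction), with a median log2 change of 1.12 over the members and 0.13 over all genes tested. Of the 29 that rose, 21 had passed the filter only with the libraries with hemin. Among the 12 members expressed at 1 FPKM or more in at least 2 libraries without it, 8 rose, 2 fell and 2 did not pass, with a median of 0.96. Median-of-ratios scaling changed the split of all calls from 4575 higher and 3332 lower to 3769 and 4117 and kept 29 of the 31 calls among the members. The 2 that fell were again Hist3h2a (-0.94 ± 0.12, adjusted p = 0.000357) and Hist3h2ba (-1.68 ± 0.15, adjusted p = 7.42e-05). Hist1h4h had the lowest adjusted p (2.76 ± 0.18, adjusted p = 2.15e-05), and Hist1h2bc had a log2 change of 1.57 ± 0.17 (adjusted p = 0.000182). Both comparisons called 26 members higher and 2 lower, 4 were higher only in hemin against DMSO, 3 only in hemin+4-OI against 4-OI, 6 in neither, and 0 had opposite calls. The share of all genes tested called in both was not computed. Each gene's spread is pooled over all 8 libraries and serves both comparisons, so their calls are not fully independent. Hist1h4m changed by 0.49 ± 0.12 with 4-OI present (adjusted p = 0.00854) against 1.03 ± 0.12 without, a difference that did not pass (interaction adjusted p = 0.854). Its call with 4-OI present was lost without the first 4-OI library (adjusted p = 0.0665) and without the first or the second library with both compounds (0.0556 and 0.0502). Hist1h1c rose here too (1.12 ± 0.32, adjusted p = 0.0156), but its adjusted p went to 0.110 without the first 4-OI library, and to 0.0690 and 0.0717 without the first or the second library with both compounds. Over all 8 libraries, 31 of the 41 members had all 4 values with hemin above all 4 without, against 40.8% of all genes tested, and 2 had all 4 below, against 26.7%. Among the 12 members at 1 FPKM or more in at least 2 libraries without hemin, 8 had all 4 values above, 2 all 4 below and 2 overlapped. The other 29 passed the filter only with the libraries where they are high, so the count over the 41 is a description.

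**Figure D4:**
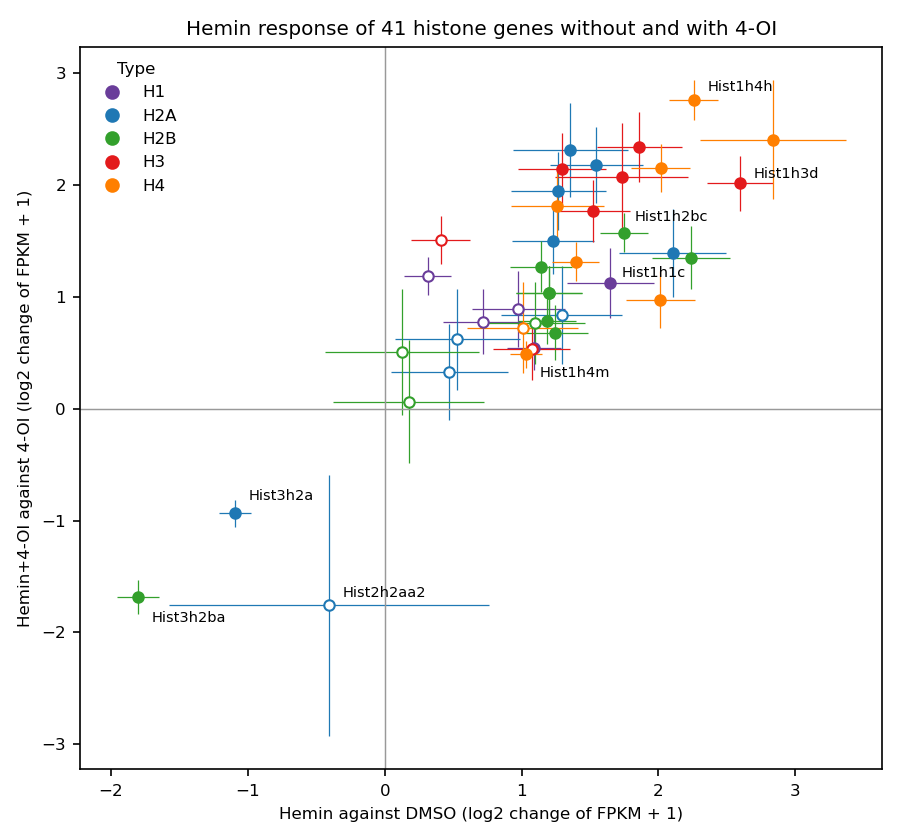
Log2 change of FPKM + 1 in hemin against DMSO (horizontal axis) and in hemin+4-OI against 4-OI (vertical axis) for the 41 tested histone genes, coloured by type. Bars are standard errors, and filled points passed in both comparisons: 26 in the upper right, and Hist3h2a and Hist3h2ba in the lower left.

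4-OI by itself changed no member past the threshold. In 4-OI against DMSO limma called 0 members and 0.0% of all genes tested, with an unadjusted p under 0.05 for 2 members and 179 genes. The 2 with the lowest p were Hist1h4h (-0.47 ± 0.18, adjusted p = 1.0) and Hist2h3c2 (-0.77 ± 0.31, adjusted p = 1.0), both lower with 4-OI in both of its libraries. Hist2h3c2 was at 0 in the second 4-OI library, the only one where the left-out gene Hist2h3c1 was above 0 (2.95 FPKM). How fragments were split between these 2 genes was not tested. In hemin+4-OI against hemin, again 0 members and 0.0% of all genes were called, with an unadjusted p under 0.05 for 7 members and 1209 genes. Hist1h3h had 0.37 and 0.66 FPKM with hemin and 2.13 and 2.33 with both (1.10 ± 0.21, adjusted p = 0.556), and Hist1h1t, a testis H1 subtype, 0.16 and 0.33 against 1.39 and 1.16 (0.87 ± 0.17, adjusted p = 0.556). The groups did not overlap in either gene, at levels of few fragments. The interaction likewise called 0 members and 0.0% of all genes (4 members and 689 genes under an unadjusted p of 0.05). Leaving out the second hemin library changed this: hemin+4-OI against hemin then gave 5 members higher (Hist1h1t, Hist1h2ab, Hist1h2ap, Hist1h3h, Hist3h2ba) and 2 lower (Hist1h2bc, Hist1h4m) among 1872 and 2599 genes, and the interaction 3 and 1 among 989 and 1579. That fit sets both libraries with the 2 compounds against the first hemin library alone, the one that stood apart.

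Of 11 tested replacement histone genes, the replication-independent set, 4 rose and 4 fell in hemin against DMSO, beside 38.7% and 22.6% of all genes tested. Their median log2 change was 0.13, beside 0.19 over all genes, and 5 rose and 5 fell in hemin+4-OI against 4-OI. Their summed FPKM was 1274 to 1308 without hemin and 1172 to 1390 with it, above the sum of all replication-type members in every library. H3f3a, which encodes the replacement histone H3.3, was at 533 and 533 FPKM in DMSO and 456 and 369 with hemin (-0.38 ± 0.11, adjusted p = 0.0186). H3f3b, which encodes the same protein, was at 295 and 304 FPKM and 320 and 338 with hemin and did not pass (0.13, adjusted p = 0.198). The H2A.Z gene H2afz did not pass either (0.29 ± 0.15, adjusted p = 0.124). H2afy2, for a macroH2A, fell by 1.04 (adjusted p = 7.12e-05), whereas H2afj rose by 1.03 (adjusted p = 0.000656) and Cenpa, for the centromeric H3 variant, by 1.55 (adjusted p = 0.000412).

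**Figure D5:**
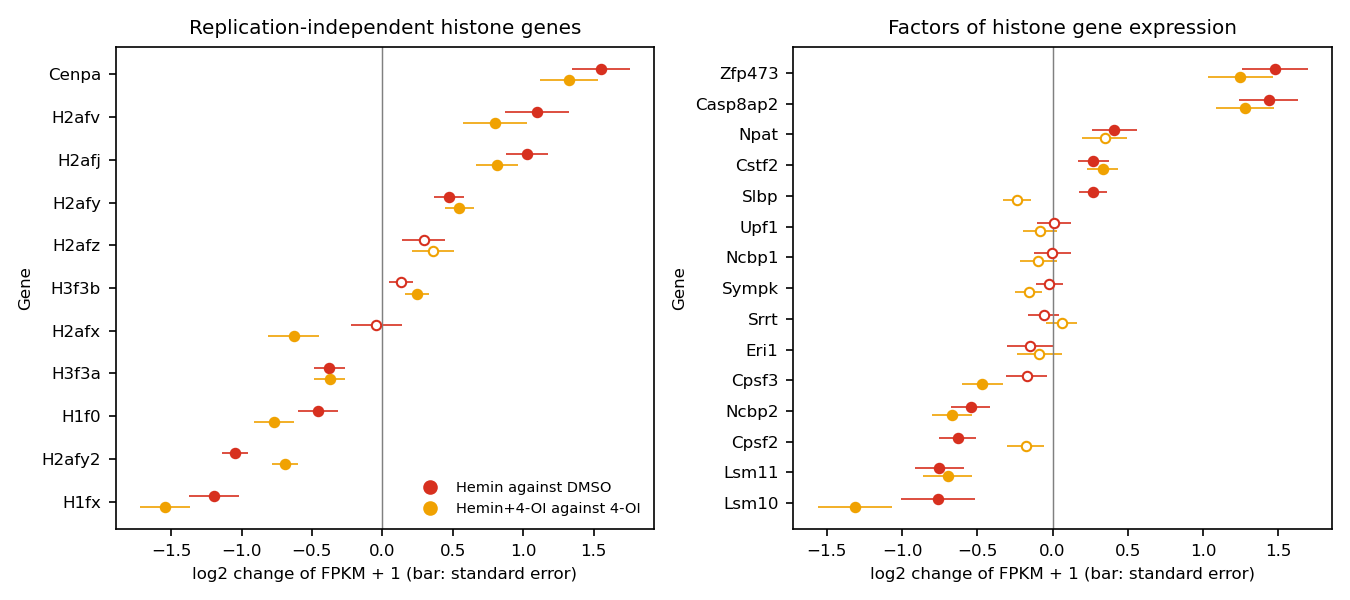
Log2 change of FPKM + 1 (horizontal axis, with standard error) of 11 replication-independent histone genes and 15 genes for factors of histone gene expression, in hemin against DMSO and in hemin+4-OI against 4-OI. Filled points passed the threshold, and both panels hold genes on each side of 0.

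Of 15 tested genes for the factors that transcribe and process histone messages, 5 rose and 4 fell in hemin against DMSO, shares near the 38.7% and 22.6% of all genes tested, and 3 rose and 4 fell in hemin+4-OI against 4-OI. Slbp, the stem-loop binding protein, was at 20.2 and 21.9 FPKM in DMSO and 25.7 and 25.4 with hemin (0.27 ± 0.10, adjusted p = 0.0379), and it did not pass in hemin+4-OI against 4-OI (-0.24 ± 0.10, adjusted p = 0.0626). Npat, the coactivator of histone genes, had a log2 change of 0.41 ± 0.15 (adjusted p = 0.0413), and Casp8ap2 (FLASH), its partner in histone locus bodies, of 1.43 ± 0.19 (adjusted p = 0.000431). Zfp473, a zinc finger protein of the processing complex, rose by 1.48 (adjusted p = 0.000649) and Cstf2, a cleavage factor, by 0.27 (adjusted p = 0.0495). The U7 snRNP proteins Lsm10 and Lsm11 fell by 0.76 and 0.75 (adjusted p = 0.0265 and 0.00426), the cap-binding Ncbp2 by 0.55 (adjusted p = 0.00742), and the cleavage factor Cpsf2 by 0.63 (adjusted p = 0.00262). Cpsf3, the nuclease that cuts histone messages, did not pass in hemin against DMSO (-0.17), nor did Sympk (-0.02), Srrt (-0.06), Ncbp1 (0.00), Upf1 (0.01) and Eri1 (-0.15), the exonuclease that trims the stem-loop's end. In hemin+4-OI against 4-OI, Casp8ap2, Zfp473 and Cstf2 rose and Lsm10, Lsm11, Ncbp2 and Cpsf3 (-0.47, adjusted p = 0.0176) fell, while Npat (0.35, adjusted p = 0.0782) and Cpsf2 (-0.18, adjusted p = 0.241) did not pass. In hemin against DMSO, the 5 that rose were 2 without either of the libraries with both compounds, and median-of-ratios scaling gave 2 higher and 7 lower.

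Histone chaperones, which carry new histones to DNA, gave 8 higher and 2 lower of 20 in hemin against DMSO, where 38.7% and 22.6% of all genes tested were called, so the share higher was near that of all genes. Asf1a, a carrier of H3 and H4, had a log2 change of 1.23 ± 0.11 (adjusted p = 8.40e-05), Hat1, which acetylates new H4, of 1.61 ± 0.16 (adjusted p = 9.87e-05), and Chaf1b, of the chromatin assembly factor, of 1.31 ± 0.18 (adjusted p = 0.000466). The 2 that fell were Nasp, a store of H3 and H4 (-0.37, adjusted p = 0.0434), and the import factor gene Ipo4 (-0.45). Of the 3 most abundant, Nap1l1 rose by 0.43 and Npm1 (0.13) and Nap1l4 (-0.06) did not pass. Under median-of-ratios scaling the count was 5 higher and 6 lower.

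Of 29 S-phase genes tested, 20 rose and 0 fell in hemin against DMSO, with a median log2 change of 1.07 (38.7%, 22.6% and 0.19 over all genes tested), and 13 rose and 0 fell in hemin+4-OI against 4-OI, with a median of 0.64. The 13 became 8 or 7 without the first or the second library with both compounds. The helicase gene Mcm7 was at 13.7 and 12.3 FPKM in DMSO and 48.8 and 37.8 with hemin (1.65 ± 0.15, adjusted p = 8.51e-05), and Rrm2, for ribonucleotide reductase, at 13.4 and 13.4 against 46.0 and 28.1 (1.36 ± 0.19, adjusted p = 0.000562). Gins2 and Cdt1, of helicase loading and activation, rose by 1.48 and 1.38. Pcna, the polymerase clamp, did not pass, at 79.0 and 75.9 FPKM against 123 and 69.6 (0.26 ± 0.23, adjusted p = 0.362). Summed FPKM of the 29 genes was 236 to 272 without hemin, 590.5 and 355 in the 2 hemin libraries, and 339 in both libraries with the 2 compounds. The first hemin library was the higher of the hemin pair for S-phase genes, and also for summed H1 FPKM (32.97 against 21.15), H2B without Hist3h2ba (176 against 125) and all members without the Hist3 pair (371 against 299). Summed H3 (25.0 against 22.8) and H4 (59.2 against 62.8) differed less. Hist1h1c (30.4 against 15.2) and Hist1h2bc (153 against 104) made up most of those H1 and H2B sums. Of the 41 tested members, 18 were higher in the first hemin library than in the second and 22 were lower. Without the first hemin library, the median log2 change of the S-phase genes in hemin against DMSO was 0.72, beside 0.17 over all genes tested. Of the 41 tested members, 2 then changed sign.

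RNA of other cell types and other RNAs without a poly(A) tail moved in the same libraries, and their part in the histone results was not tested. In hemin against DMSO, 8 of 8 astrocyte markers, 5 of 6 microglial, 4 of 4 oligodendrocyte precursor and 5 of 5 fibroblast markers rose, beside 38.7% of all genes tested. The progenitor markers that rose, 3 of 7, were near that share, and 4 of 6 neuronal markers fell, beside 22.6% of all genes tested. With 4-OI present the counts were 7, 0, 3, 4 and 3 higher and 4 lower, beside 33.3% and 24.2% of all genes tested. The 0 microglial markers became 4 of 6 when either hemin library was left out of the limma fit. Summed microglial marker FPKM was 39.2 to 73.4 without hemin, 289 in the first hemin library and 94.0 to 101 in the other 3. Oligodendrocyte precursor markers summed to 23.6 to 34.0, 95.9 and 48.1 to 49.0, and fibroblast markers to 15.3 to 18.1, 69.5 and 45 to 49.7, in the same order. Progenitor markers summed to 565 to 597, 1763 and 879.8 to 907, and no marker of any list was at 0 in all libraries. Of 22 RNAs listed as lacking a poly(A) tail, 10 had a row and 8 were tested, and 7 rose in each hemin comparison. Rpph1, the RNA of ribonuclease P, was at 0 to 1.68 FPKM without hemin and 261 to 290.1 with it, and Rn45s, the ribosomal precursor, at 2.74 to 4.98 and 279.8 to 426. Rn18s, at 938 to 1262 and 1014 to 1339 FPKM, did not pass (-0.03 ± 0.15, adjusted p = 0.886). Whether RNA was selected by poly(A) or by ribosomal depletion is not given in the sources used here.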

How the data were processed

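RNA of 8 libraries, 2 in each of 4 groups, was given by the authors as 1 deposited table of FPKM values. Bowtie2, RSEM and the build mm8 are named per the submitters' processing notes. Not given in the sources used here were versions, annotation, strandedness and RNA selection. FPKM + 1 was log2-transformed and genes reaching 1 FPKM in 2 or more of 8 libraries were fitted together in limma 3.58.1 (R 4.3.3) with a mean per group and an intensity trend. The 5 comparisons were each adjusted over all genes tested at a threshold of 0.05. Each log2 change is on this scale and understates the change of low genes. The fit was tested on simulated data. With 2 libraries a group, precision rests on the spread pooled over all 8. Named within each histone type were the 3 members with the highest mean FPKM and the 3 with the lowest p in hemin against DMSO, and in each other comparison the 2 with the lowest p. From the other lists the same 3 and 3 were drawn on, with every gene for histone message factors. Nasp, Ipo4, Hist1h2ab, Hist1h2ap, Hist1h2ah, Hist2h2ac, Hist2h3c1, Hist3h2bb-ps, H1f0 and Hist1h4j were named after their values were seen. The members and all gene lists were chosen with earlier results of these data known. Alternatives were other pseudocounts, filters, scalings, TPM, a replicate block and leaving out each library, and the list counts under these were added after seeing the data. Sequences came from GENCODE M21 (GRCm38) and RefSeq (GRCm38.p6), not mm8, and no coordinate of the deposited table was used.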

Additional observations from a re-analysis of the deposited data

How the results depend on the processing

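In hemin against DMSO the 30 members higher became 9 with a filter at 5 FPKM, where 12 members were tested, and 16 under quantile normalization. Of all genes tested, 3596 of 10299 were higher with that filter and 3642 of 13746 under quantile normalization. In hemin+4-OI against 4-OI the 29 higher became 9 with the filter at 5 FPKM, beside 3348 of all 10299 genes tested. Fewer genes tested accounts for the filter's counts by construction, and the cause of the quantile result was not tested. Leaving out each library in turn gave 22 to 31 higher and 2 to 2 lower in hemin against DMSO, 23 to 31 and 2 to 3 in hemin+4-OI against 4-OI, 0 to 0 and 0 to 0 in 4-OI against DMSO, 0 to 5 and 0 to 2 in hemin+4-OI against hemin, and 0 to 3 and 0 to 1 for the interaction. The highest of these last 4 came without the second hemin library, at 5 and 2 and at 3 and 1. Calls over all genes tested also moved with the library left out, so these ranges are not particular to the members. The log2 ratio of summed H2A FPKM went from 0.20 to -0.029 (hemin against DMSO) and from 0.43 to 0.27 (hemin+4-OI against 4-OI) under median-of-ratios scaling. That scaling also moved H2B from 0.28 to 0.12 (hemin+4-OI against 4-OI) and H4 from 1.99 to 1.76 (hemin against DMSO, 1.87 as TPM). The H3 ratio in hemin+4-OI against 4-OI went from 4.29 to 5.70 over members with a mean FPKM of at least 1. Hist2h2aa2 ranged with a library left out from -1.70 to 0.89 in hemin against DMSO (0.48 without Hemin replicate 1) and from -3.52 to 0.0 in hemin+4-OI against 4-OI, passing at -3.52 without 4-OI replicate 2 (adjusted p = 0.0368). With replicate number as a block, 31 members were higher and 2 lower in hemin against DMSO, and 27 and 2 in hemin+4-OI against 4-OI. Of all 13746 genes tested, that fit called 5235 higher and 3026 lower, and 4460 and 3239, in the same order. The labels give samples of different groups only a shared replicate number. Deviations correlated between -0.09 and 0.05, which with 2 libraries a group cannot exclude a shared culture or batch. Levels under about 1 FPKM rest on few fragments.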
